A study of Mus musculus with 5 samples.

Results

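The microRNAs miR-21, miR-31 and miR-148 were followed through the activation of mouse helper T cells, as 3 of the 171 microRNA probes of a small 2-colour array (1org-21, 1org-31 and 1org-148). They were chosen from the measured log ratios themselves, as microRNAs raised in activated cells on different schedules, so the values that set their courses are a description and carry no test. Total RNA of activated CD4+25- T cells was compared with RNA of unactivated CD4+25- T cells, called naive in the series title, on each of 5 arrays: 1 after overnight activation, 2 at day 3 and 2 at day 10. The overnight array had the activated RNA in Cy5, and each later time had 1 array with it in Cy5 and 1 with it in Cy3, a dye swap. The strain, age, genotype, activating agent and culture conditions are not stated in the labels, nor is it stated if each dye swap used 1 RNA extract or separate ones. The label CD4+25- describes helper T cells without CD25, a receptor subunit that marks regulatory T cells at rest and most T cells once they are activated.

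A microRNA is a short RNA that pairs through its seed, bases 2 to 8, with messenger RNAs and lowers their output. MiR-21 is carried by many activated and transformed cells and is known to restrain Pdcd4 and Spry1. MiR-31 is known in T cells for restraining RhoA and, in human cells, FOXP3, the transcription factor of regulatory T cells. MiR-148a is known from repeatedly activated T helper 1 cells, where it restrains the death protein Bim, and it shares its seed with miR-148b and miR-152.

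The mature sequences are shown because the 3 microRNAs share no seed, and because the miR-148 probe has close relatives. Each is given 5′ to 3′ from RefSeq (GRCm38.p6), with the seed in capitals. The arm shown is the one usually named by the number alone. The sequences of the array's probes were not used here.
miR-21a-5p: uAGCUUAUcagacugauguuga
miR-31-5p: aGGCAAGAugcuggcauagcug
miR-148a-3p: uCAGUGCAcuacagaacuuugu
miR-148b-3p: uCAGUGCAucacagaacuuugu
miR-152-3p: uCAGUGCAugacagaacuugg
Counted from 1 at the 5′ end, miR-148b-3p differs from miR-148a-3p by C9U and U10C alone, and miR-152-3p differs by C9U, U10G and U20G over the 21 bases compared. Among the 1738 mature mouse microRNAs of that RefSeq table, the seed CAGUGCA was found in these 3 alone. The seed of miR-31-5p was found in no other entry, and that of miR-21a-5p was shared with miR-21c alone.

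The array's annotation gave the genes Mirn21 and Mirn31 for 2 of the 3 probes. It gave none for 1org-148, although the RefSeq gene table lists Mirn148 as an older symbol of Mir148a. Whether that probe also reads miR-148b is not given in the sources used here. In GRCm38.p6 the precursor of miR-21a lies at chr11:86584067-86584158 on the minus strand and overlaps the span of the protein-coding gene Vmp1. The precursor of miR-31 lies at chr4:88910557-88910662 on the minus strand and overlaps the gene model Gm49890. The precursor of miR-148a lies at chr6:51269812-51269910 on the minus strand and overlaps the gene model Gm38821. The table gives gene spans only, so exons and introns were not read. Strand was not used in finding these overlaps. The 3 precursors thus lie on 3 chromosomes, and none shares a cluster with another.

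All values are log2 ratios of activated over naive RNA. Arrays with the activated RNA in channel 1 (Cy3) were turned by -1, on the reading that the deposited ratio is Cy5 over Cy3, which is likely but not stated. If it were Cy3 over Cy5, every direction here would be turned. The dye swaps correlated at -0.66 and -0.43 over probes before turning, so the deposited ratios run in 1 dye direction. The array medians over the 171 probes ranged from -1.75 overnight to 1.42 on a day 3 array. For this reason the members' values are given as deposited and after centring, in which the median of each array was set to 0. Signal and background of the spots were not analysed here, so no probe can be said to stand above background, and the small number of arrays (5) limits the precision. The ± after a pair mean is how far each of its 2 arrays lay from it (n = 2). This distance holds the dye effect as well as the noise, and it is not a standard error.

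MiR-31 was highest at day 3. Its log2 ratio was -0.998 on the overnight array, 4.30 and 5.68 on the day 3 arrays with the activated RNA in Cy5 and Cy3, and 0.46 and 0.62 on the day 10 arrays in the same order. Both day 3 arrays thus stood far above the other 3, with no overlap. The day 3 mean of 4.99 ± 0.69 is a 31.7-fold higher ratio in activated than in naive RNA, and the day 10 mean of 0.54 ± 0.08 is 1.45-fold. The difference of day 10 and day 3 was -4.45 on the log2 scale (21.8-fold lower at day 10), beside a pooled SE of 0.63 from a limma fit across all probes with a dye term. Within a dye the difference was -3.84 on the Cy5 arrays and -5.06 on the Cy3 arrays. These are totals of bulk RNA, in which fewer cells carrying a microRNA and less of it per cell cannot be told apart.

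Centring kept the miR-31 course and drew its arrays together. Centred, the overnight array read 0.75, the day 3 arrays 4.10 and 4.25, and the day 10 arrays 0.97 and 1.00. The day 3 arrays differed from their mean by 0.08 after centring, against 0.69 before. The difference of day 10 and day 3 was then -3.19, or 9.13-fold. The sign of the overnight value depended on the setting, and it was just under 2-fold from naive RNA as deposited. The centred day 10 mean of 0.98 was also just under 2-fold, and with the arrays brought to a common scale as well it was just over, at 1.17.

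MiR-21 was high at both days, as deposited at about the same ratio. Its log2 ratio was -0.09 on the overnight array, 2.08 and 2.81 on the day 3 arrays, and 2.57 and 2.76 on those of day 10. The day 10 arrays lay within the range of the day 3 arrays. The means were 2.45 ± 0.37 at day 3 (5.45-fold) and 2.66 ± 0.10 at day 10 (6.33-fold), a difference of 0.22 (pooled SE 0.63). The difference was 0.49 within Cy5 and -0.05 within Cy3, so neither its size nor its sign was beyond the spread between arrays.

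After centring the miR-21 course had another shape. The overnight array then read 1.65, the day 3 arrays read 1.88 and 1.39, and those of day 10 read 3.08 and 3.14. The day 10 arrays then lay above the other 3, and the overnight array lay between those of day 3. Day 10 was higher than day 3 by 1.47 (2.78-fold; pooled SE 0.54 in the centred fit), and by 1.20 and 1.75 within Cy5 and Cy3. Whether miR-21 held its day 3 ratio or went on to a higher one therefore turned on the centring, which moves every difference of day 10 and day 3 by the same 1.26. Which setting is nearer to the cells' RNA was not tested.

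The miR-148 probe was the late one. The overnight array read -2.41, the day 3 arrays 0.30 and 1.15, and the day 10 arrays 3.24 and 3.38. The 3 times followed each other without overlap. The mean was 0.72 ± 0.43 at day 3, under 2-fold, and 3.31 ± 0.07 at day 10, or 9.91-fold. Day 10 was higher than day 3 by 2.59 (6.02-fold; pooled SE 0.63), by 2.94 within Cy5 and by 2.24 within Cy3.

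After centring, the late course of miR-148 was larger. The overnight array read -0.67, the day 3 arrays 0.10 and -0.28, and the day 10 arrays 3.75 and 3.76. At day 3 the probe stood at the middle of the array, with a centred mean of -0.09, and day 10 was the only time at which it was at least 2-fold higher, in both settings. The difference of day 10 and day 3 was 3.85, or 14.4-fold. The overnight value of -2.41 was lower than 2-fold as deposited, on an array where most probes were, and was -0.67 after centring.

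**Figure D1:**
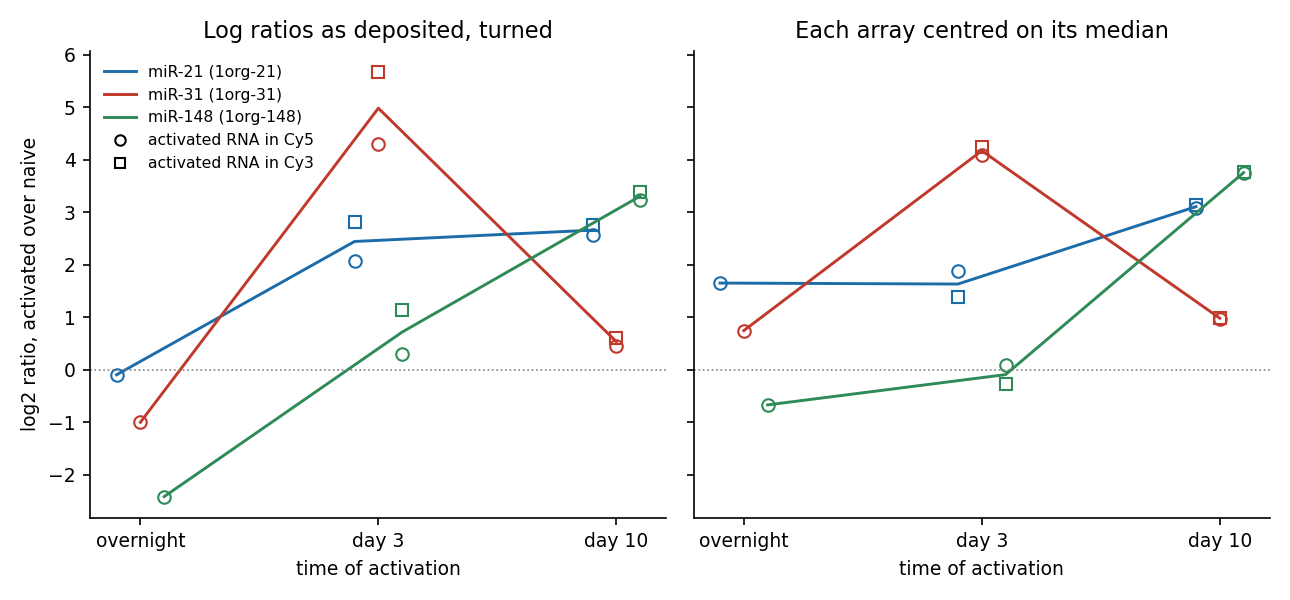
Log2 ratio of activated over naive RNA (y axis) for the 3 probes at 3 times (x axis, not to scale in time), as deposited and turned on the left and centred on the right. Each symbol is 1 array, circles with the activated RNA in Cy5 and squares in Cy3, and lines join the means of each time. MiR-31 peaks at day 3 (4.99, or 4.17 centred), miR-148 is highest at day 10 (3.31, or 3.76 centred), and miR-21 is level from day 3 to day 10 on the left and higher at day 10 on the right.

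The overnight array has no dye swap, so its values hold the dye effect of each probe. With the dye term of the fit taken off, the overnight values were 0.14 for miR-21, -0.61 for miR-31 and -2.17 for miR-148 as deposited (pooled SE 0.71), and 1.55, 0.80 and -0.76 after centring (pooled SE 0.61). The order of the 3 probes was the same in each of these settings, with miR-21 highest and miR-148 lowest. Comparing only arrays with the activated RNA in Cy5 needs no dye correction for a difference of times. On these, day 3 was higher than overnight by 2.17 for miR-21, 5.29 for miR-31 and 2.71 for miR-148, and after centring by 0.23, 3.35 and 0.76.

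A difference between 2 probes on the same array cannot be moved by centring, and it shows the unequal courses directly. MiR-148 minus miR-31 was -1.42 overnight, -4.0 and -4.53 on the day 3 arrays, and 2.78 and 2.77 on the day 10 arrays. It thus changed sign between day 3 and day 10 on both dyes, by 6.78 on the Cy5 arrays and 7.30 on the Cy3 arrays. MiR-21 minus miR-31 went from 0.91 overnight to -2.21 and -2.86 at day 3 and to 2.11 and 2.14 at day 10. MiR-148 minus miR-21 was -2.32 on the overnight array, -1.79 and -1.67 on those of day 3, and 0.67 and 0.63 on those of day 10. These are differences of log ratios, not of amounts. Relative to miR-21, then, miR-31 stood higher at day 3 and lower at the other times, while miR-148 stood lower until day 3 and higher at day 10. The arrays of day 10 gave nearly the same differences, and those of day 3 spread more widely.

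**Figure D2:**
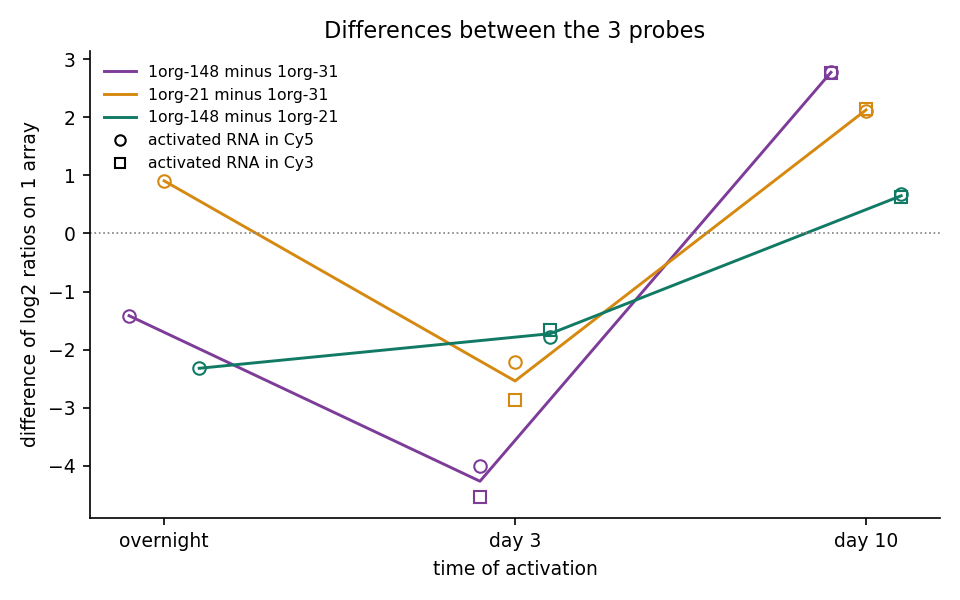
Difference of the log2 ratios of 2 probes on the same array (y axis) at 3 times (x axis, not to scale in time). Each symbol is 1 array, circles with the activated RNA in Cy5 and squares in Cy3, and lines join the means. MiR-148 minus miR-31 goes from a mean of -4.26 at day 3 to 2.77 at day 10, and no centring of the arrays can move these points.

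Against all 171 microRNA probes, the 3 courses took different places. At day 3 the rule of at least 2-fold higher, with the same sign on both arrays, took in 2 of the 3 probes, miR-21 and miR-31, and 38.0% of all probes (65), or 15.2% after centring, with the same 2 members. Without the day 3 array in Cy5 it took in 110 probes. At day 10, miR-21 and miR-148 met this rule, as did 9.94% of all probes (17), or 14.6% after centring, with the same 2 members. Without the day 10 array in Cy3, 27 probes met it. Overnight none of the 3 was at least 2-fold higher as deposited, against 4.09% of all probes. After centring miR-21 was, against 21.6%. MiR-148 was at least 2-fold lower overnight, as were 73.1% of all probes as deposited. After centring none of the 3 was lower, against 4.09% of all probes. Since the members were chosen on these contrasts, nothing is read from their counts.

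Between the days, with no overlap of the 2 pairs, miR-31 was at least 2-fold lower at day 10, as were 41.5% of all probes (13.5% after centring). MiR-148 was at least 2-fold higher, as were 12.9% of all probes, and after centring miR-148 and miR-21 were, as were 28.1%. The difference of miR-31 was the 3rd lowest of the 171, that of miR-148 the 4th highest, and that of miR-21 the 35th highest, around a median of -1.22 (0.04 after centring). MiR-21 therefore stood above most probes in its difference between the days although its own ratio was level as deposited.

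By size of the log ratio, miR-31 was 46th of 171 overnight, 2nd by the day 3 mean and 27th by the day 10 mean. Ranks by mean do not move with centring by 1 number per time, and they order differences between activated and naive RNA, not amounts. At day 3 its neighbours were 2org-210 (5.03), numbered as the hypoxia-induced miR-210, and 2org-214 (4.96), both nearer than its own arrays were to their mean. At day 10 its neighbours were 2org-7 (0.54) and 1org-183 (0.51), again within the spread of the pairs. MiR-148 was 150th overnight, 101st at day 3 and 4th at day 10. At day 3 its neighbours 2org-95 (0.73) and 1org-290 (0.71) could not be set apart from it. At day 10 it lay 0.88 below 2org-34 (4.19), numbered as miR-34, and 0.63 above 2org-222 (2.68). These gaps were larger than the ± of these means (0.07 for miR-148), which is not a standard error. The pooled SE of the miR-148 mean at day 10 was 0.45, so the order of these probes is not settled. Other probes numbered 34 were at 4.26 (1org-34c), -0.66 (1org-34a) and -1.27 (1org-34b) at day 10. MiR-21 was 27th overnight, 22nd at day 3, between 1org-301 (2.52) and 1org-127 (2.27), and 6th at day 10, between 2org-222 and 2org-221 (2.497). Its neighbours lay within the spread of the pairs, apart from 2org-221, which was 0.17 lower at day 10, against ± values of 0.10 and 0.02. That gap was smaller than the pooled SE of the miR-21 mean at day 10 (0.45), so it does not set the 2 probes apart. On single arrays miR-31 was 5th and 1st at day 3, miR-148 was 5th and 4th at day 10, and miR-21 was 8th and 5th at day 10.

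**Figure D3:**
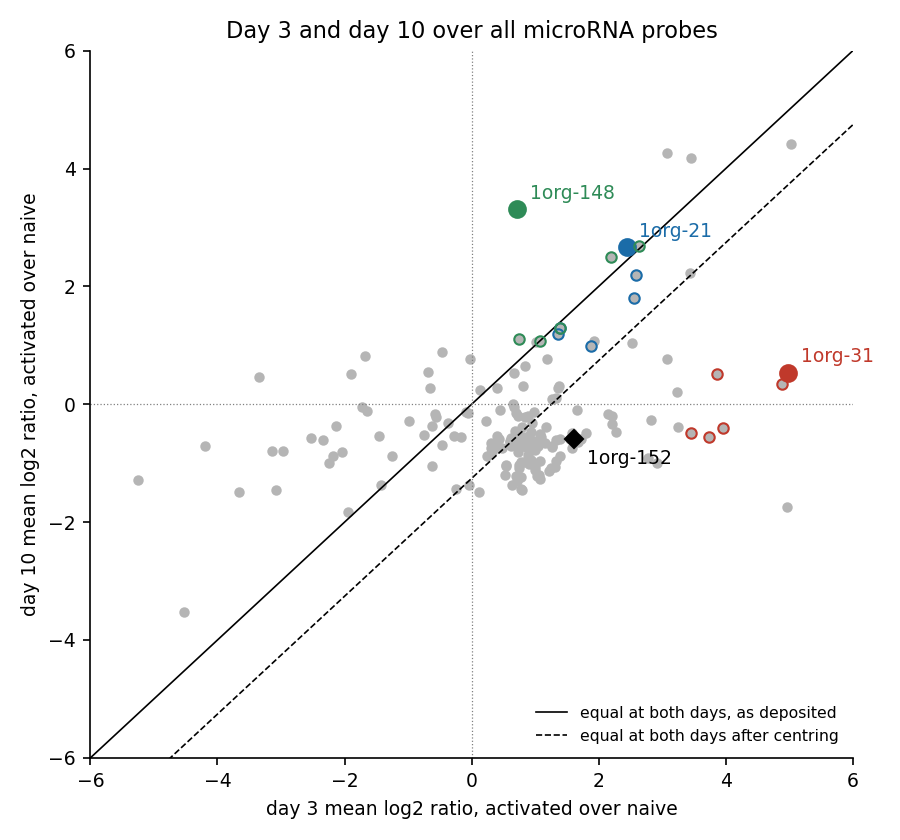
Mean log2 ratio of activated over naive RNA at day 3 (x axis) and day 10 (y axis), as deposited, for the 171 microRNA probes in grey. Filled colours mark 1org-21, 1org-31 and 1org-148, open circles of the same colour the 5 probes nearest to each over the 3 times, and the diamond 1org-152. MiR-148 lies above both lines of equal ratio, miR-31 far below both, and miR-21 close to the solid line and above the dashed one, which is 1.26 lower.

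How many probes had the course of each member depended on the centring. An early course was at least 2-fold higher at day 3. At day 10 it was at least 2-fold lower than at day 3, with no overlap of the 2 pairs. It was found in 26.9% of probes, 46 in number, and in 7.60% after centring, 13 in number. MiR-31 was among them in both settings, and all 13 were among the 46. Leaving out the day 3 array with the activated RNA in Cy5 raised the 46 to 92. A held course, at least 2-fold higher at both days with the pairs under 2-fold apart or overlapping, was found in 7.02% of probes, 12 in number, miR-21 among them. After centring it was found in 4.09%, 7 in number, without miR-21, and 4 probes were in both sets. A late course was not at least 2-fold higher at day 3 and was at least 2-fold higher at day 10. It was also at least 2-fold higher at day 10 than at day 3, with no overlap of the 2 pairs. As deposited it was found in 0.585% of probes, which is 1org-148 alone. Leaving out the day 3 array with the activated RNA in Cy5 left no probe in it, since miR-148 was then at 1.15 at day 3 and counted as higher at both days. Leaving out the day 3 array in Cy3 gave 2 probes, and leaving out the day 10 array in Cy3 gave 4.

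After centring the late course was found in 6.43% of probes, 11 in number. Beside miR-148, with the highest day 10 value of the 11 (3.76), these were 1org-7i, a let-7 microRNA (-2.49 at day 3 and 1.26 at day 10), 1org-29c (-1.28 and 1.33), 1org-106b (-1.50 and 1.00), 1org-20 (-0.84 and 1.21), 2org-17-5p (0.04 and 1.1), 2org-19a (0.20 and 1.501), 1org-130b (0.58 and 1.75), 1org-27a (0.54 and 1.63), 1org-296 (0.27 and 1.52) and 2org-147 (-0.07 and 1.56). These probes differed on the overnight array, a single array without a dye swap. There 2org-17-5p (3.90), 1org-20 (3.20) and 2org-19a (1.83), numbered as members of the miR-17 clusters, were more than 2-fold above the array median. MiR-148 was lowest at -0.67, and the others lay between, from -0.54 (2org-147) to 0.77 (1org-106b). A further course was added after the values were seen. It was higher at both days and at least 2-fold higher at day 10 than at day 3, with no overlap. It was found in 0.585% of probes as deposited, which is 1org-34c, and in 2.92% after centring, which are 1org-21, 1org-34c, 2org-34, 2org-221 and 2org-222.

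The probes with the course most like each member were found by the root mean square difference of log2 ratios over the 3 times, among the 170 other probes; centring by 1 number per time does not move it. Nearest to miR-31 was miR-155 (1org-155), the microRNA of the activation-induced Bic transcript, at a root mean square difference of 0.62, with 0.05 overnight, 4.88 at day 3 and 0.35 at day 10. It was followed by miR-212 (2org-212; 0.80), 1org-183 (0.91), 1org-132 (1.05), numbered as the partner of miR-212 in 1 gene cluster, and 1org-298 (1.06). The median over the 170 probes was 2.59. All 5 were also the nearest when the 5 arrays were compared singly.

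Nearest to miR-21 were miR-23a (1org-23a; 0.30) and miR-18 (1org-18; 0.58), followed by 1org-24 (1.02), 1org-130b (1.18) and miR-27a (1org-27a; 1.23), against a median of 2.39. MiR-23a, miR-24 and miR-27a are made from shared cluster transcripts. MiR-23a was at 0.07 overnight, 2.58 at day 3 and 2.19 at day 10, so that it lay below miR-21 at day 10 alone. Over the 5 arrays 3 of the 5 were still the nearest, and over days 3 and 10 without the overnight array 2 were. Then 2org-222 (0.14) and 2org-221 (0.21) came nearest. These carry the numbers of miR-221 and miR-222, a pair known to restrain the cell cycle inhibitor p27.

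No probe followed miR-148 as closely. The nearest were 2org-221 (0.98) and 2org-222 (1.16), then 2org-147 (1.27), 1org-296 (1.32) and 1org-130b (1.41), against a median of 2.39. Probe 2org-221 was near it overnight (-2.23) but at 2.19 at day 3 and 2.497 at day 10, and 2org-222 was at -2.43, 2.64 and 2.68. Both thus lay near miR-148 overnight, above it at day 3 and below it at day 10. Without the overnight array, miR-21 was the second nearest (1.30).

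**Figure D4:**
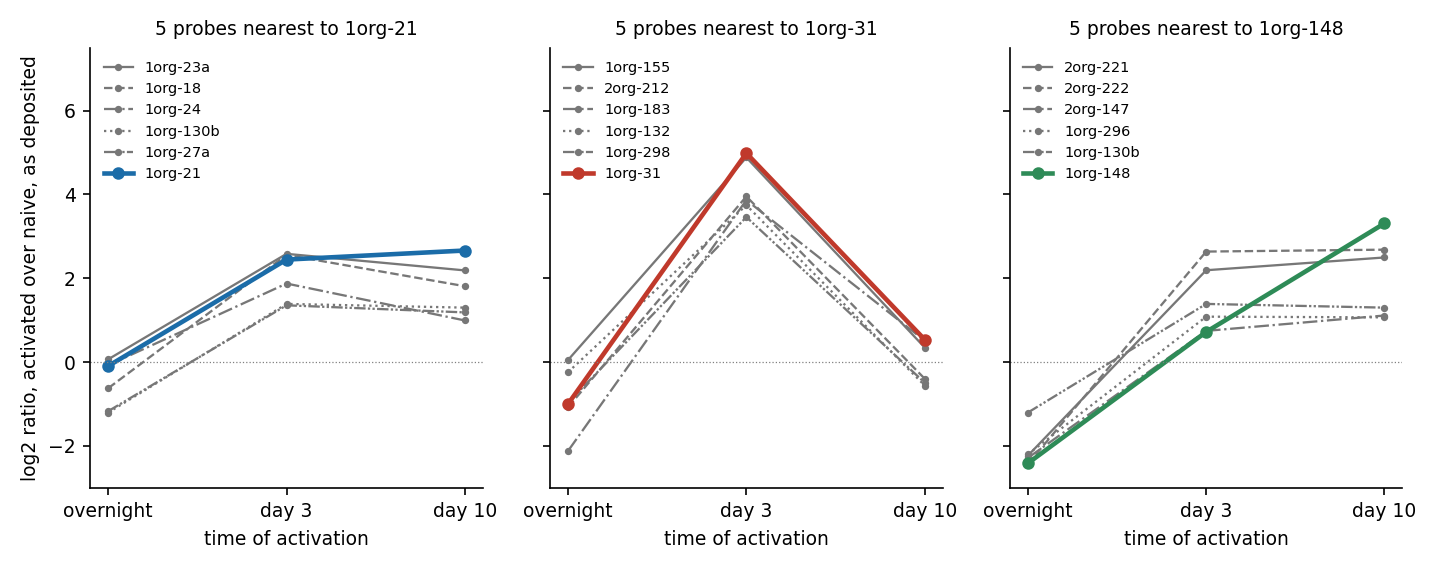
Log2 ratio of activated over naive RNA (y axis, mean of a dye swap at days 3 and 10, 1 array overnight) at 3 times (x axis, not to scale in time) for each member in colour and its 5 nearest probes in grey. The 5 probes around 1org-31 share its day 3 peak, while none of those around 1org-148 is as high at day 10 (3.31).

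The other probe with the miR-148 seed, 1org-152, did not have the late course and had the early one as deposited. The overnight array read -1.56, the day 3 arrays 1.94 and 1.29, and the day 10 arrays -0.65 and -0.53. Centred, these became 0.19, then 1.74 and -0.13, then -0.14 and -0.15. The day 10 arrays stood below those of day 3 as deposited, while after centring they stood just below the lower of these. MiR-148 minus 1org-152 on the same array, a difference that centring cannot move, was -0.85 on the overnight array, -1.65 and -0.15 on those of day 3, and 3.89 and 3.91 on those of day 10. At day 10 the probes 1org-148 and 1org-152 thus differed by more than 2-fold on both arrays, while on the day 3 array in Cy3 they were close. No test was made of this difference, and binding of 1 microRNA to the other's probe was not tested.

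For context, a list of 25 probes of microRNAs known from T cell activation and proliferation was read, the 3 members among them. The list was drawn up with earlier results of these data known and supports nothing by itself. Without the 3 members, the day 3 mean was at least 2-fold higher in 17 of 22, against 38.0% of all probes, and lower in none, against 22 of all 171, around a median of 2.37 against 0.83 over all probes. After centring 14 were higher, against 15.2% of all probes, and 1 was lower, against 34 of 171. At day 10, 9 of 22 were higher, against 9.94% of all probes, and 2 were lower, against 29 of 171, around a median of 0.71 against -0.56. After centring 12 were higher, against 14.6% of all probes, and 1 was lower, against 7 of 171. Of the 22, 8 had the early, 8 the held and 0 the late course as deposited, and 6, 6 and 4 after centring. Over all probes the shares were 26.9%, 7.02% and 0.585% as deposited, and 7.60%, 4.09% and 6.43% after centring. Over the 25, the differences of day 10 and day 3 furthest below 0 were those of 2org-214 (-6.71), miR-155 (-4.53) and miR-31 (-4.45). Those furthest above 0 were those of miR-148 (2.59), miR-20a (1org-20, 0.79) and 1org-92 (0.69). MiR-31 and miR-148 thus stood near the 2 ends of the list.

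Markers of other cells could be read only as shifts, since a ratio gives no level against which to check the labelled cell type. At day 10, where miR-148 was high, 2org-223, numbered as the myeloid miR-223, was at -1.44, the erythroid miR-144 (1org-144) at -0.66 and 1org-126, numbered as the endothelial and platelet miR-126, at -0.88. After centring these were -0.997, -0.21 and -0.44. At day 3, where miR-31 was high, they were at -0.24, 1.03 and 0.25, and after centring at -1.05, 0.22 and -0.56. None of the 3 was at least 2-fold higher at day 10, and miR-144 alone was at day 3, as deposited. Among lymphocyte probes, 1org-150 was at -5.24 and -1.28, 1org-181 at -4.53 and -3.52, 1org-142-s at -1.43 and -1.36 and 1org-142-as at -2.19 and -0.88, in each case at day 3 and then day 10. After centring they were at -6.05 and -0.84, -5.34 and -3.08, -2.24 and -0.91, and -2.999 and -0.43. The lymphocyte probe 1org-155 went the other way, at 4.88 and 0.35 as deposited and at 4.07 and 0.80 after centring. The means of 1org-150, 1org-142-s and 2org-223 were thus at least 2-fold lower at day 10 as deposited and not after centring. The part of a changed cell mixture in these courses was not tested.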

How the data were processed

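The deposited table holds 1 log ratio of the 2 channels for each of 178 probes on 5 arrays, without missing values. The log2 scale and the order Cy5 over Cy3 are readings of the deposited values, since no source used here states the log base, numerator, scanner or normalization of the authors. Groups and dyes come from the labels. Arrays with activated RNA in channel 1 were multiplied by -1, dye pairs were averaged, and 7 probes for other small RNAs were left out, which leaves 171. Centring subtracts each array's median (-1.75 overnight, 0.81 and -0.45 from the means of days 3 and 10). A fit in limma 3.58.1 (R 4.3.3) with 1 term for each time and 1 for the dye, tested on simulated data, gave the pooled SE; 5 arrays leave it 1 residual degree of freedom per probe, and the SE covers only array-to-array spread, part or all of it possibly technical. No p-value was computed. Calls of higher or lower at a time needed a mean of at least 1 on either side of 0 (log2) and 1 sign on all arrays of that time. A rise or fall between days 3 and 10 needed a difference of at least 1, with no overlap of the 2 pairs.

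The members and lists were chosen with earlier results of these data known. Probes named are the members, the 5 nearest to each, the neighbours in the order of ratios, the probe with a shared seed, the ends of the activation list and cell type markers; all probes of the late and added courses were named after their values were seen. The annotation gave 1 gene for 61 probes, several for 1 and none for 116. Probe 1org-298 was listed with 2 genes and is given by its ID. Alternatives were centring, scaling, a dye term, arrays of 1 dye, leaving out each array of a pair and a log2 difference of 1.5.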

Additional observations from a re-analysis of the deposited data

Results flagged for a closer look

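In several cases every array of 1 time lay on 1 side of 0 and every array of another time on the other side; none of these differences was tested, and a time has 1 or 2 arrays. As deposited, the 3 members were below 0 overnight and above 0 later. MiR-21 was higher than overnight by 2.54 at day 3 and by 2.75 at day 10, miR-31 (1org-31) by 5.98 and 1.54, and miR-148 (1org-148) by 3.13 and 5.72. After centring this held for miR-148 at day 10 alone, by 4.42. The median over all probes as deposited also changed side from overnight (-1.75) to day 3 (0.83), and at day 10 it was -0.56. On the overnight array 125 of the 171 probes (73.1%) were lower by 2-fold or more as deposited. A value below 0 there therefore does not set the members apart. Their change of side from overnight to day 3 was also that of the median probe, and it is not read as particular to them. How many of all probes changed side from overnight was not counted. With the dye term taken off, the overnight value of miR-21 as deposited was above 0, at 0.14. Between day 3 and day 10, all arrays changed side in this way from above to below 0 for 42 of the 171 probes and the other way for 7 as deposited, and for 12 and 17 after centring. Only the probes nearest to the members, 1org-152 and the ends of the activation list were looked at singly. For those of them that changed side the differences of day 10 and day 3 were -4.30 for 1org-132, -2.21 for 1org-152, -3.95 for 1org-298, -4.35 for 2org-212, -6.71 for 2org-214 and 0.79 for 1org-20. After centring they were -3.05 for 1org-132, -5.46 for 2org-214 and 2.05 for 1org-20. As deposited, the change of side of 1org-20 rested on a day 3 mean of -0.03 ± 0.028, and its difference was under 2-fold.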

How the results depend on the processing

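MiR-31 kept the early course under centring, a common scale, the Cy5 arrays alone, a log2 difference of 1.5 and the loss of any array of a pair, and miR-148 kept the late course under all of these except the loss of the day 3 array with activated RNA in Cy5. MiR-21 left the held course under centring and a common scale. No value of the 3 probes at least 2-fold from 0 as deposited changed sign under an alternative that kept the direction of the ratios, and signs of smaller values did change. The dye-term fit returns the pair means at days 3 and 10 by construction, and leaving out 1 array returns the other, so neither shows stability. After centring miR-21 was at 1.65 overnight (1.55 with the dye term), 1.64 at day 3 and 3.11 at day 10, a difference of 1.47. MiR-31 was at 0.75 (0.80 with the dye term) and at 0.98 at day 10, with a difference of -3.19. MiR-148 was at -0.67 (-0.76), -0.09 and 3.76, with a difference of 3.85. On a common scale miR-21 was at 2.12, 1.34 and 3.68, with a difference of 2.34, miR-31 at 0.96, 3.55 and 1.17, with a difference of -2.38 and a day 10 value just over 2-fold, and miR-148 at -0.86, -0.11 and 4.44, with a difference of 4.55.

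Leaving out 1 array of a pair gave day 3 values of 2.08 to 2.81 for miR-21, 4.30 to 5.68 for miR-31 and 0.30 to 1.15 for miR-148. Day 10 values ran from 2.57 to 2.76, 0.46 to 0.62 and 3.24 to 3.38. Differences of the days ran from -0.15 to 0.58, -5.14 to -3.76 and 2.16 to 3.01. The early course counted 46 probes as deposited, 13 after centring with or without the dye term, 11 on a common scale, 24 at a difference of 1.5 and 42 to 92 without 1 array. The held course counted 12, with 7 after centring with or without the dye term, 2 on a common scale and 9 to 13 without 1 array. The late course counted 1 as deposited, 11 after centring with or without the dye term, 14 on a common scale, 4 on the Cy5 arrays and 0 to 4 without 1 array. Counts from 1 array require no second sign, so they are not under the same rule. Probes at least 2-fold higher numbered 65 at day 3 and 17 at day 10, and ran from 24 to 110 and from 14 to 29 over the alternatives; overnight they numbered 7, and 5 to 42. At a log2 difference of 1.5 there were 37, 10 and 3 at day 3, day 10 and overnight. The activation list holds 25 probes, the 3 members among them. It had 3, 19 and 11 higher probes at the 3 times, against 4.09%, 38.0% and 9.94% of all probes. Over the alternatives, a difference of 1.5 included, it had 2 to 13 overnight, 14 to 21 at day 3 and 8 to 16 at day 10. With Cy3 as the numerator, 0 of 6 day 3 and day 10 values of the members would be higher, in place of 4. The depth of signal over background is unknown.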
